A study of Mus musculus with 6 samples.

Results

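The accessible chromatin around 10 genes at the core of Notch signalling was described in mouse embryonic stem cells: the receptor genes Notch1, Notch2, Notch3 and Notch4, the ligand genes Dll1, Dll3, Dll4, Jag1 and Jag2, and Rbpj, which encodes the DNA-binding factor of the pathway. Members were the ATAC-seq peaks that overlapped, by 1 bp or more, the RefSeq span of one of these genes widened by 50 kb on each side (GRCm38.p6). This rule found 103 peaks of 77629 in the deposited list, or 0.133%, and no peak lay in more than 1 of the 10 widened spans.

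ATAC-seq marks open DNA by the insertion of sequencing adapters with the Tn5 transposase. The cells were untreated E14 embryonic stem cells, a mouse line, kept on gelatin in 2i/LIF medium, which holds the MEK inhibitor PD0325901, the GSK3 inhibitor CHIR99021 and leukaemia inhibitory factor. They carried an NSD1-dTAG knock-in, a tag through which dTAG-13 directs the histone methyltransferase NSD1 to degradation, and all 6 samples of the series carry it. Not analysed here were the other 5 samples: the same cells after 1, 6 or 24 h in 500 nM dTAG-13, and day 6 embryoid bodies grown in 500 nM dTAG-13 or untreated. The values below thus come from the 0 h library alone, with no replicate, no test between conditions and no p-value. The labels do not say how many clones the line came from.

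Notch receptors are membrane proteins that are cut after a ligand on a neighbouring cell binds them. The freed intracellular part enters the nucleus, joins RBPJ on DNA and turns RBPJ from a repressor into an activator of genes such as those of the Hes and Hey families. Delta-like and Jagged proteins are the ligands, and the pathway is known for choices between neighbouring cells during differentiation, including the exit of stem cells towards neural fates.

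Promoter sequences are shown for the genes whose start regions differed most in content or in how the peak lay over the start. They are RefSeq windows of GRCm38.p6 from 250 bases before to 50 after an annotated start, written 5′ to 3′ along transcription, and all 10 genes had at least 1 such window (12 in all). For Rbpj, at chr5:53590096-53590395 on the plus strand, capitals mark the core of the RBPJ recognition motif, TGGGAA, or its reverse complement. For Dll1, at chr17:15376883-15377182 on the minus strand, capitals mark E-boxes, CANNTG, a motif class bound by basic helix-loop-helix factors. For Dll3, at chr7:28301736-28302035, and Jag2, at chr12:112929446-112929745, both on the minus strand, capitals mark the bases inside a listed peak. For Notch2, at chr3:98013288-98013587, and Notch4, at chr17:34564045-34564344, both on the plus strand, capitals mark CpG dinucleotides.
Rbpj: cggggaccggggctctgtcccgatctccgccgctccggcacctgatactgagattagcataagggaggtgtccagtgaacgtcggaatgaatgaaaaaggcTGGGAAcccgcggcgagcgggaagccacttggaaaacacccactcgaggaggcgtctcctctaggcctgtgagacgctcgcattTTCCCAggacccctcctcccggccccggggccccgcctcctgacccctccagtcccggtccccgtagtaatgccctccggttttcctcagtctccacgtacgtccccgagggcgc
Dll1: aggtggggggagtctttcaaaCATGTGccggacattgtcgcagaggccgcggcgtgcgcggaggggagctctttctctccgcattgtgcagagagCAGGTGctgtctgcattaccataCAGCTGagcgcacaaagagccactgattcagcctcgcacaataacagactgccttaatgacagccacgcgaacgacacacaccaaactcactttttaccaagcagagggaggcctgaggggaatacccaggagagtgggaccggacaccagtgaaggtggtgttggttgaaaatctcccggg
Dll3: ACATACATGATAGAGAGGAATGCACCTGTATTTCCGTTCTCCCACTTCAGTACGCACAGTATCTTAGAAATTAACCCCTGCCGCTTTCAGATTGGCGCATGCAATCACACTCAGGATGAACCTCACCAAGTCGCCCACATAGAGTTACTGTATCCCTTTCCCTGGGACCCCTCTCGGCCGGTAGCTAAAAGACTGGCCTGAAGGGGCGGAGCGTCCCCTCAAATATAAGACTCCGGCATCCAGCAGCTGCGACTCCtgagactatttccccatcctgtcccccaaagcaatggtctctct
Jag2: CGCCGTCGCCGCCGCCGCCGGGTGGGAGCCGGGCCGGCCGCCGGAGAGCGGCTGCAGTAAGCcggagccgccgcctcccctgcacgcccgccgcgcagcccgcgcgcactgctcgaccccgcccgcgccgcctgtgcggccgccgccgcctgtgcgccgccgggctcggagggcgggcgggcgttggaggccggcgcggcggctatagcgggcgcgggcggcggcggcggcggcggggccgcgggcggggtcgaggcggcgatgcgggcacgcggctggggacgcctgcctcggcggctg
Notch2: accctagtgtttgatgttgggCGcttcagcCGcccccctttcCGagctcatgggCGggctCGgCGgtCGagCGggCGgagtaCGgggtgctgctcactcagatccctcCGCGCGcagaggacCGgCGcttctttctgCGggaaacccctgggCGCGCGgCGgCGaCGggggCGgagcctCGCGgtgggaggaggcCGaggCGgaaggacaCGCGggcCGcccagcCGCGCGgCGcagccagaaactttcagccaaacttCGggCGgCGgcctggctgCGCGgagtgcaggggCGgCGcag
Notch4: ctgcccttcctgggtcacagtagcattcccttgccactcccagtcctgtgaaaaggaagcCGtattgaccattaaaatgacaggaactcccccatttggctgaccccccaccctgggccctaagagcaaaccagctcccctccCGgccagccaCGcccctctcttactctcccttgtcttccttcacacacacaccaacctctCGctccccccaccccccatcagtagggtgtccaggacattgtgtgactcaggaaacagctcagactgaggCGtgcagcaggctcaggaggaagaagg

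Among the windows available for the 10 genes, only those of Rbpj held the RBPJ core motif. These windows belong to the inner starts of Rbpj. Its outer start, which carries its tallest peak, had no window, so motifs and CpG there were not counted. The same holds for the outer start of Jag2. In Rbpj the motif lay at bases 102 and 186 of the window shown, and the window of the next start, at 53590486, shares the second copy. Over all 32851 RefSeq promoter windows, 25.6% held the motif on either strand. The longer form GTGGGAA was in 0 of 12 windows (6.38% of all), and TATAAA was in 0 of 12 (13.6% of all). E-boxes were in 6 of 12 windows, those of Dll1, Dll3, Jag1, Notch4 and Rbpj (72.3% of all), with 3 copies in the Dll1 window shown. TGGGAA and GTGGGAA overlap where the longer one occurs, and such letter matches describe the sequence and are not binding sites. CpG content separated the windows widely, with 63 CpG in Jag2, 41 in Notch2 and 5 in Notch4. The median of the 12 windows was 23.5, against 7 over all windows of the table. That table also holds windows of long non-coding RNA genes, so this median and the motif shares are not over coding genes alone. Counts of coding-gene starts by CpG are given below.

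Every one of the 10 genes had an accessible site at its start. A peak overlapped a window of 1 kb either side of an annotated start in 10 of 10 genes, against 67.7% of 17492 protein-coding genes with strand in the RefSeq table. With windows at either annotated gene end the count was again 10 of 10, against 66.5% of 21887 protein-coding genes. At least 1 annotated first base lay inside a peak in 10 of 10 genes (62.9% of coding genes). Height differed more than presence did. Heights are given as summit pileup, which counts the reads or fragments that cover a peak's summit, with exact Poisson 95% intervals that cover counting error only. The median pileup of the tallest start peak was 64.5 in the 10 genes and 70 in all coding genes with a start peak. In bulk cells, fewer cells with an open site and less opening in each cell cannot be told apart.

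Rbpj had the tallest start peak, at 157 (133 to 184). Notch1 followed at 108 (88.6 to 130), then Jag1 at 96 (77.8 to 117), Notch4 at 84 (67 to 104), Jag2 at 73 (57.2 to 91.8) and Notch2 at 56 (42.3 to 72.7). The lowest were Notch3 at 36 (25.2 to 49.8), Dll1 at 35 (24.4 to 48.7), Dll3 at 33 (22.7 to 46.3) and Dll4 at 31 (21.1 to 44.0). In this order the intervals of Rbpj and Notch1 did not overlap, and every other gene's interval overlapped that of its neighbour. The 3 Delta-like ligands and Notch3 were close together at the bottom, below the lower limit of Jag2, Notch4, Jag1, Notch1 and Rbpj. Pileups above the median of coding genes were found in 5 of 10 genes (49.2% of coding genes).

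Relative to their local background the start peaks were modest. The authors' fold enrichment, the ratio of summit pileup to local background, was below the coding-gene median of 11.4 in 10 of 10 genes (50% by definition), with a median of 7.29. It was highest in Notch2 (11.3), Jag2 (10.9), Notch4 (10.5) and Rbpj (10.3) and lowest in Dll1 (3.97) and Dll4 (4.25). The local background under the peaks had a median of 6.82 in the 10 genes and 5.09 in coding genes, and it exceeded the coding-gene median in 8 of 10 genes (50% by definition). Peaks were called without a control, so this background comes from the same library and can include reads of nearby open sites. What this does to the folds was not tested. Rbpj (14.3), Notch1 (13.8) and Jag1 (12.4) had the highest background. Pileup and fold therefore rank the upper genes differently: Notch1 stood next to the top by pileup (108) and in the middle by fold (7.35), while Notch2 stood lower by pileup (56) and highest by fold. Notch3 and the Delta-like ligand genes were lowest by both measures.

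**Figure D1:**
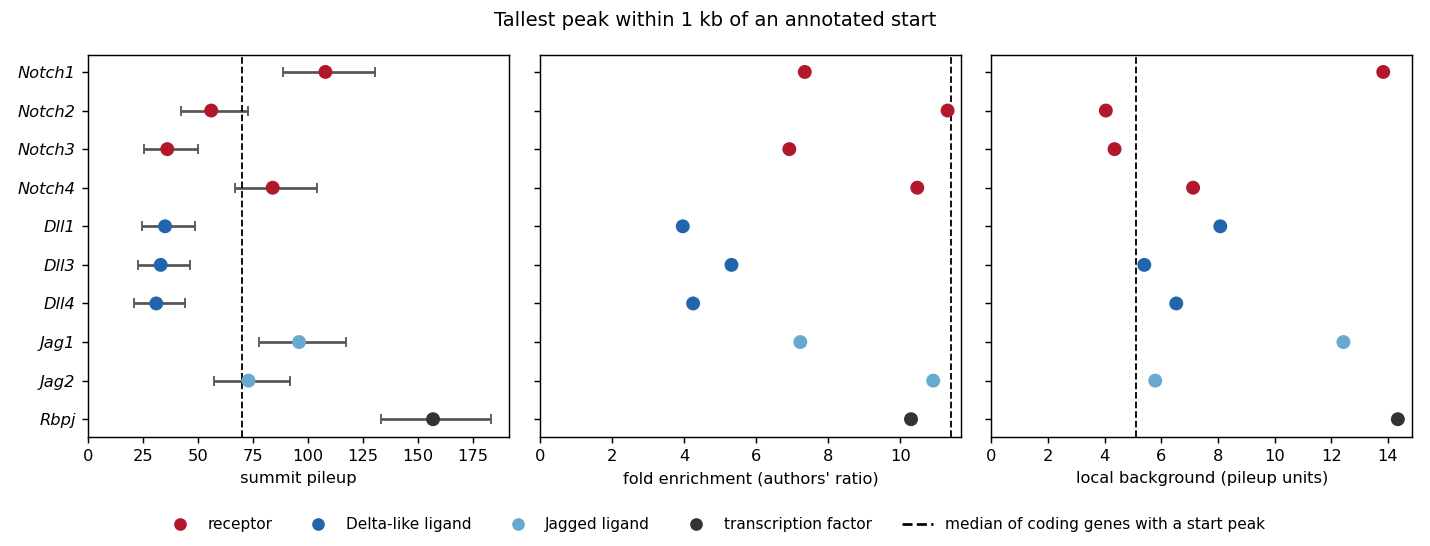
Summit pileup with exact Poisson 95% intervals (left), the authors' fold enrichment (middle) and local background in pileup units (right) of the tallest peak within 1 kb of an annotated start, 1 point per gene from 1 library, with dashed lines at the medians of coding genes with a start peak. Rbpj has the highest pileup (157), the 3 Delta-like ligands lie between 31 and 35, and all 10 folds lie below the dashed line at 11.4.

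The summit of the tallest start peak lay upstream of the nearest annotated start in 10 of 10 genes (55.2% of coding genes with a start peak). The 4 receptor genes and Rbpj had it close to the start, at -64 bp in Notch2, -61 bp in Rbpj, -70 bp in Notch3, -111 bp in Notch1 and -197 bp in Notch4. Among the ligands it lay at -125 bp in Dll1, -195 bp in Jag2, -328 bp in Jag1, -527 bp in Dll3 and -647 bp in Dll4. The last 3 had their summits outside the promoter window. In all, 7 of 10 genes had the summit within 250 bases before to 50 after a start, against 64.1% of coding genes with a start peak. The median offset was -160 bp in the 10 genes and -13 bp in coding genes. Offsets were taken to the nearest of all annotated starts, of which Rbpj has 3 and Notch3, Notch4, Dll1 and Jag2 have 2 each. In Dll1 the nearest is the inner start, and the summit lay 0.984 kb inside the gene from its 5′ end. The lower peak at the outer start of Dll1 had its summit 0.255 kb inside the gene.

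**Figure D2:**
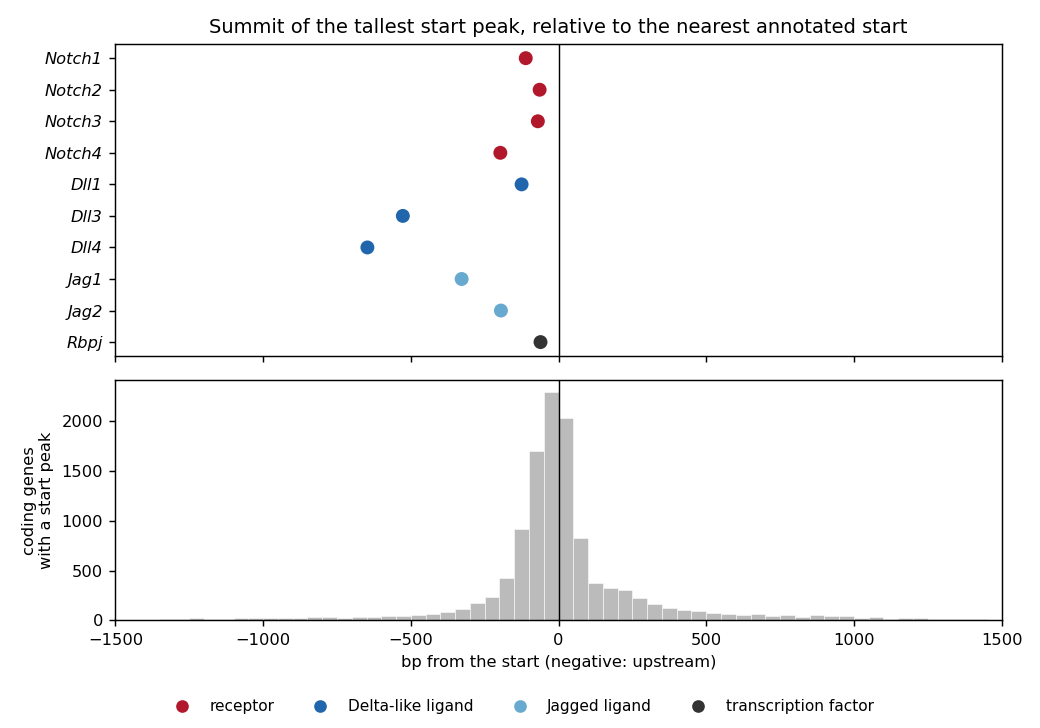
Position of the summit of the tallest start peak relative to the nearest annotated start, in bp, for each of the 10 genes (top) and as a histogram over 11849 coding genes with a start peak (bottom; bins of 50 bp). All 10 points lie left of the nearest start (for Dll1 its inner one), between -61 and -647 bp, with Dll3 and Dll4 farthest.

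Around Notch1, the receptor best known from blood and neural progenitors, 12 peaks were listed and 8 of them lay in the gene. The start peak (chromosome 2, 26503427 to 26504425, pileup 108) also lies at a start of a long non-coding RNA gene, Gm35978, and cannot be assigned to either gene. A second tall site lay 2.84 kb inside the gene, at a pileup of 86 (68.8 to 106), and 5 further sites inside the gene had pileups of 21 to 43. The 3′ end carried a peak of 75 (59.0 to 94.0), close to an end of another long non-coding RNA gene, 0610009E02Rik. Upstream there was a peak of 53 at 3.64 kb and one of 6 at 49.6 kb. The tallest peak of the widened span, 144 (121 to 170), lay 11.8 kb beyond the 3′ end at a start of Sec16a, and a peak of 68 lay at ends of both Sec16a and Inpp5e.

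Notch2 was the most sparsely covered of the 10 loci. Its 137 kb gene and flanks held 5 peaks, or 2.11 per 100 kb. The start peak (chromosome 3, 98013141 to 98014238) had a pileup of 56. Inside the gene, peaks of 49 (36.3 to 64.8), 32 and 12 lay 11, 72.5 and 86.0 kb from the start. The first of these had a fold of 13.3, above the 11.3 of the start. The remaining peak, of 9, lay 23.1 kb beyond the gene, and none of the 5 was at an end of the neighbouring coding genes Gm5544 and Adam30.

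Notch3, a receptor of vascular smooth muscle, had many low sites. None of its 14 peaks exceeded a pileup of 55. The start region held 2 peaks, of 36 (chromosome 17, 32166673 to 32167300) and of 19. The tallest site, 55 (41.4 to 71.6), lay 23.6 kb inside the gene, within 1 kb of an end of Gm41568, a long non-coding RNA gene. This site had the highest fold of the locus, 15.8. Its interval overlapped that of the start peak. Another of 46 lay 36.2 kb inside, within 1 kb of an end of Gm38585, also a long non-coding RNA gene. Downstream 6 peaks of 22 to 51 lined up between 2.46 and 47.1 kb from the gene, none at a coding gene end. The tallest of them lay at starts of Gm30729 and Gm38585, both long non-coding RNA genes. Upstream lay a peak of 35 at a start of Ephx3.

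Notch4, an endothelial receptor gene within the major histocompatibility complex, had a start peak of 84 (chromosome 17, 34563964 to 34564502) in the CpG-poor promoter shown above. A taller peak, 135 (113 to 160) with a fold of 13.2, reached the 3′ end window (34586930 to 34587920), and the intervals of the 2 peaks did not overlap. Its summit lay more than 1 kb from the annotated 3′ end, so that the gene-end pileup of Notch4 is 84 when the summit must lie in the window. Between them the gene held 1 peak, of 27. The gene has 9 coding neighbours within 50 kb, and the tallest peak of the span, 180 (155 to 208), lay at ends of both Rnf5 and Agpat1. Upstream, 4 peaks of 23 to 30 lay between 1.35 and 20.4 kb from the gene.

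The 3 Delta-like ligand genes shared low start peaks and a taller site a few kb away. A peak taller than any within 1 kb of a start lay within 5 kb of one in 3 of 10 genes, Dll1, Dll3 and Dll4, against 8.3% of coding genes with a start peak. This feature was chosen after the values were seen. Dll1, an activating ligand used in somites and neural progenitors, had peaks of 35 (15374833 to 15376137) and 24 (15376355 to 15377090) over its 2 annotated starts on chromosome 17. Upstream by 3.42 kb lay a peak of 86 (68.8 to 106, fold 10.4; 15380354 to 15381238), at no annotated start or gene end. Its interval did not overlap those of the start peaks. Only 2 further peaks were listed in the span, of 70 at the start of Fam120b and of 28 downstream.

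Dll3, a divergent ligand known to dampen Notch signalling within the cell that makes it, had a start peak of 33 on chromosome 7 (28301780 to 28302408). The peak ends 5 bases past the annotated first base, as the capitals of the sequence show, and its summit lay at -527 bp. Inside the gene, peaks of 60 (45.8 to 77.2) and 33 lay 2.41 and 7.10 kb from the start. The interval of the taller one overlapped that of the start peak slightly. Of the 9 peaks outside the gene, 7 lay at ends of coding neighbours, among them 113 at Supt5, 98 at Timm50 and 68 at Rps16, and the other 2 had pileups of 17 and 9. Dll3 thus had the most peaks per 100 kb of the 10 genes, 11.1, but 4 of its 12 peaks were away from every coding gene end.

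Dll4, the ligand of sprouting endothelium, had peaks of 31 (chromosome 2, 119325072 to 119325896) and 20 near its start. A peak of 70 (54.6 to 88.4) lay 2.83 kb upstream, close to the ends of the long non-coding RNA genes Gm52558 and Gm14207. Gm14207 also has a start near both peaks at the Dll4 start, and these peaks cannot be assigned to either gene. Further sites of 82 (65.2 to 102, fold 14.3), 25 kb upstream, and 62 (47.5 to 79.5, fold 15.1), 1.80 kb downstream, lay at no annotated gene end. The intervals of all 3 lay above that of the start peak. The tallest peak of the span, 118, was at the start of Vps18.

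The Jagged ligand genes had taller start peaks than the Delta-like ones. Jag1, whose product acts in many developing organs including liver and inner ear, had the widest tallest start peak of the 10, 1635 bp on chromosome 2 (137116001 to 137117635), with a pileup of 96. Within the gene, peaks of 49, 19 and 69 (53.7 to 87.3, fold 12.6) lay 1.74, 9.11 and 18.0 kb from the start. Outside it the 50 kb flanks held 1 peak, of 7, and the next listed peak beyond the limit lay 115 kb away. That peak of 7 lay inside Slx4ip, the coding neighbour of Jag1, which had no peak at an end within the span.

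Jag2, a ligand of limb and craniofacial development, had 2 start peaks on chromosome 12, of 73 (112929684 to 112930411) and 24 (112928532 to 112929308). Between them lay 375 bases in no listed peak, and the start of the promoter window shown, at 112929495, fell inside that gap. The outer annotated start, at 112929812, was inside the taller peak. In the window 62 of 300 bases were in a peak, and its 63 CpG were matched or exceeded by 10 of 32851 windows, Jag2's own included. The rest of the gene held no peak. Upstream stood 5 peaks, the tallest of 109 (89.5 to 131) in Btbd6 and Brf1 near a start of Btbd6. Downstream, peaks of 47 and 41 lay about 30 kb away, the first of them at a non-coding gene, 1700127F24Rik.

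The gap at Jag2 was set beside all starts of coding genes. The first base lay inside a peak at 15% of 9196 starts with under 10 CpG in the promoter window, 84.0% of 4426 with 10 to 19, 95.8% of 4358 with 20 to 29, 97.5% of 2202 with 30 to 39, 95.4% of 847 with 40 to 49 and 85.0% of 234 with 50 or more. Starts with 50 or more CpG were thus covered less often than those with 20 to 49. Of the 12 windows of the 10 genes 11 had the first base in a peak, and Jag2's was the exception. Notch4's, at 5 CpG, was in a peak although most starts with so few were not.

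**Figure D3:**
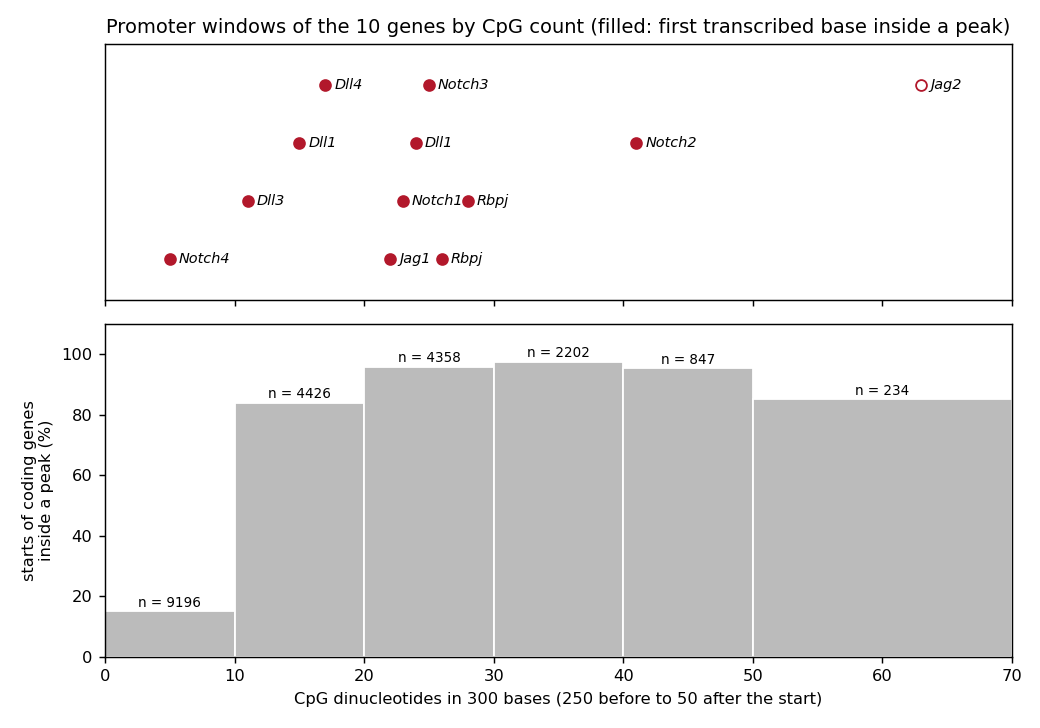
CpG count of the 12 promoter windows of the 10 genes (top; filled points have the first transcribed base in a peak, vertical position has no meaning) and the share of coding-gene starts inside a peak by CpG count (bottom; bars start at 0, n is the number of starts). Jag2, at 63 CpG, is the only open point, and the bar for 50 or more CpG (85.0%) is lower than that for 20 to 29 (95.8%).

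Rbpj, the factor on which all 4 receptors converge, had 19 peaks in a widened span of 202 kb, or 9.42 per 100 kb. Of these, 11 lay in the gene or within 1 kb of its ends. The outer start carried the peak of 157 (chromosome 5, 53555436 to 53556397), and the 2 inner starts, at 53590346 and 53590486, shared a second broad peak of 129 (108 to 153; 53588965 to 53590721). The promoter with the RBPJ core motifs shown above lies wholly within that second peak, and its summit stood at -964 bp from the nearest start. The intervals of the 2 peaks overlapped. The rest of the gene held 8 peaks of 10 to 51. A peak of 36 (53657838 to 53658230) lay beyond the gene, within 1 kb of its 3′ end. Farther out were peaks of 152 (129 to 178), 13.9 kb downstream, and of 133 (111 to 158), 49.5 kb upstream, neither at an annotated start or end of any gene. Of the 19 peaks 17 were away from the ends of coding genes, the inner start peak included, since its starts are not the ends of the span. The coding neighbour Cckar had no peak at the end that lies in the span. The RefSeq table lists 3 Rbpj pseudogenes elsewhere, so that reads from exons of Rbpj could be shared with them.

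**Figure D4:**
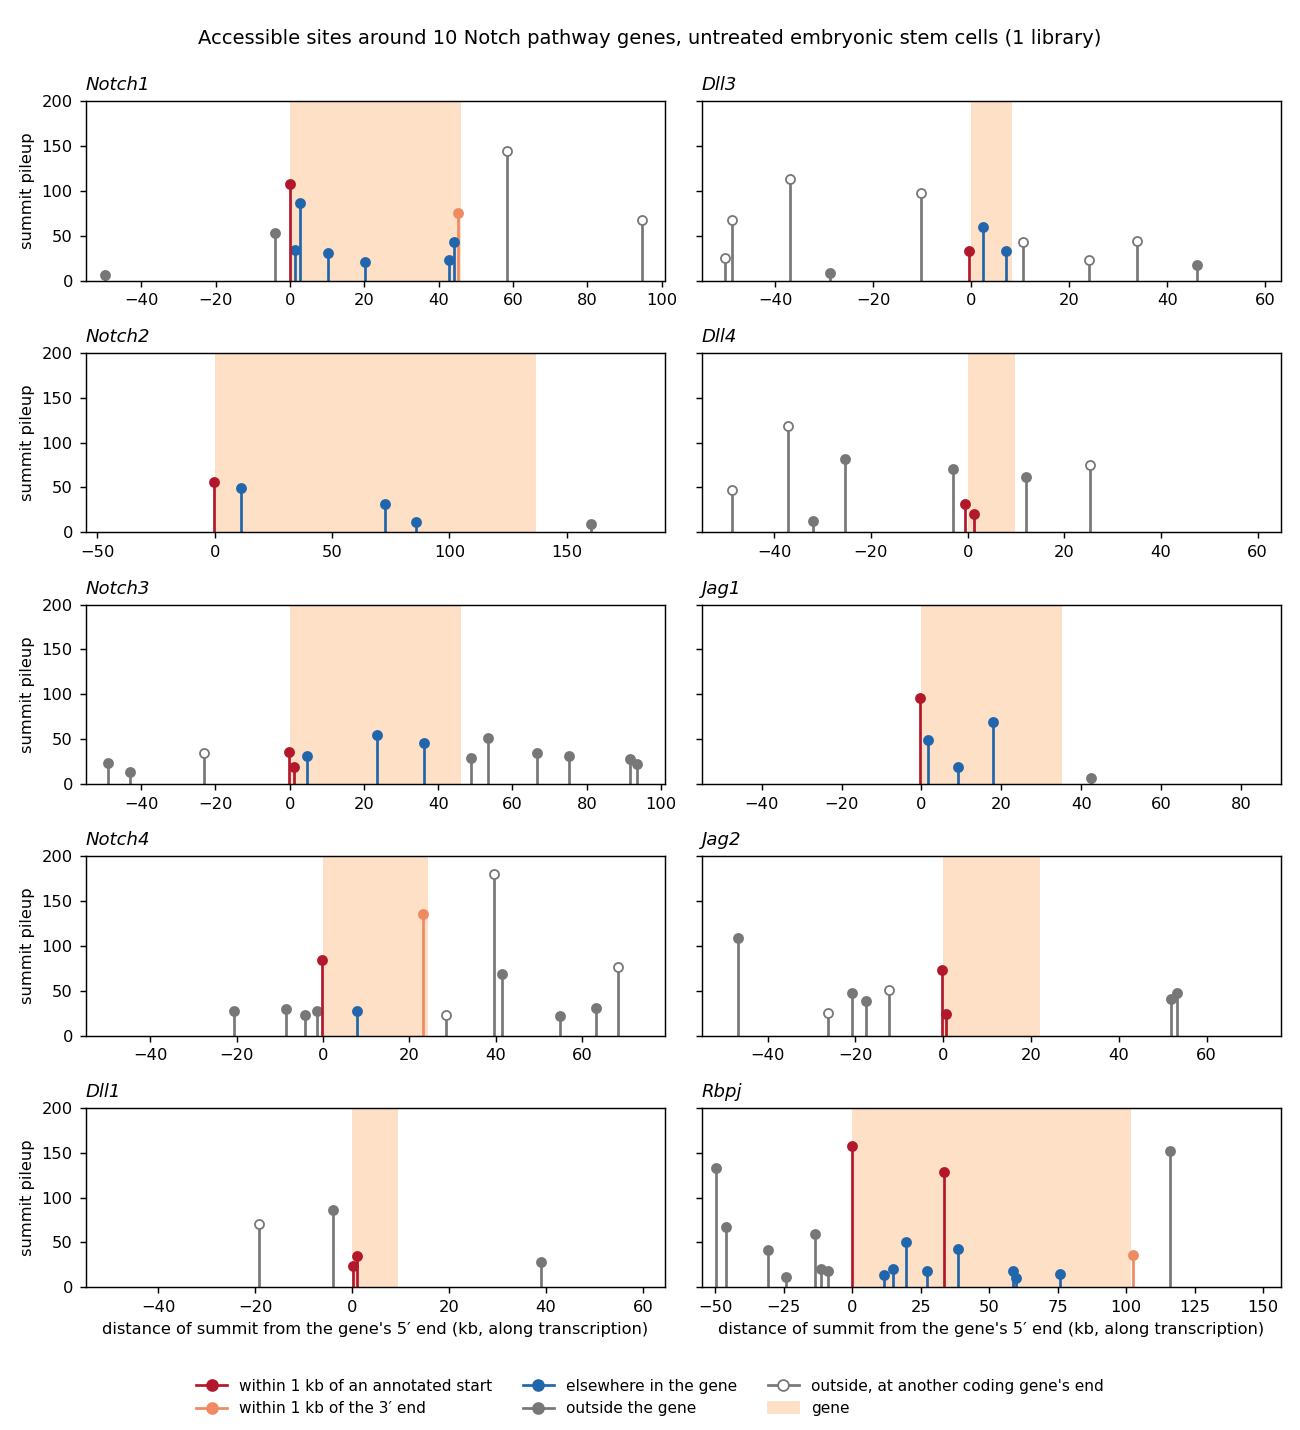
Summit pileup of each of the 103 peaks (vertical lines) against its distance from the gene's 5′ end in kb along transcription, 1 panel per gene, with the gene shaded, colours for the position of the peak and open circles for peaks at the end of another coding gene. The start peaks (red) are the tallest sites of Notch2, Jag1 and Rbpj and stand below nearby sites in Dll1, Dll3 and Dll4, and Rbpj has sites of 133 and 152 outside the gene.

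Of the 103 peaks, 15 lay within 1 kb of a start, 3 within 1 kb of a 3′ end, 26 elsewhere in the gene and 59 outside both the gene and these windows. The outside peaks had a median pileup of 41 and those in gene bodies 31.5, and 19 of the outside peaks were at the ends of other coding genes. Away from all coding gene ends, and called distal here, were 67 peaks (65.0%), against 79.7% of all peaks on chromosomes, with a median pileup of 31 against 20. Ends are those of gene spans, so distal peaks include some at inner annotated starts of coding genes. Among them are peaks of 109 at Btbd6, 69 at Agpat1, 31 at Ppt2 and 129 at Rbpj. Per gene, the number of distal peaks within 50 kb of a gene end had a median of 4.5 in the 10 genes and 4 in all coding genes. The highest were 17 in Rbpj and 11 in Notch3, and the lowest were 2 in Notch2 and in Dll1. Peaks per 100 kb of widened span had a median of 8.21 (range 2.11 to 11.1) in the 10 genes and 5.07 in all coding genes, whose upper quartile was 8.84. At least 2 peaks stood at the starts of 5 of 10 genes (8.4% of coding genes), namely Notch3, Dll1, Dll4, Jag2 and Rbpj. Genes with more annotated starts can have more places to count. Of coding genes with 1 annotated start 2.93% had 2 or more such peaks, and of the 5 members with 1 start only Dll4 did. The 2 starts of Notch3, at 32166890 and 32166896, lie so close that they add almost no sequence to its window.

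The other genes of the pathway were mostly accessible as well. In a list of 43 further Notch pathway genes, 40 had a peak at a gene end (93.0%, against 66.5% of all coding genes). Their median pileup was 67.5, against 66 over coding genes with such a peak. Genes for cleavage of the receptor had one in 7 of 9 cases, led by the metalloproteases Adam17 (129) and Adam10 (119). Furin and Aph1b, a subunit of gamma-secretase, had none at the ends of their spans, but within 1 kb of other annotated starts they had peaks of 34 and 166. All 5 genes that add sugars to the receptors had one, with Pofut1 (82) and Poglut1 (70) the tallest and the fringe genes Rfng, Lfng and Mfng at 64, 55 and 30.

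All 12 genes for ubiquitin ligases and endocytic regulators had a gene-end peak, and Numb (192), an inhibitor of Notch passed to a single daughter cell, and Fbxw7 (168), which marks the intracellular domain for destruction, were the tallest of the whole list. Among the 7 nuclear partners, 6 had one, led by the coactivator Maml1 (157) and by Kdm5a (95). Maml3 had none at its ends or known start, but a peak of 72 in its body, and Rbpjl, the tissue-restricted relative of Rbpj, had the lowest at 19. The 7 target genes all had one, led by Hey2 (121) and Nrarp (104), with Hey1 at 101, Hes7 at 87, Hes1 at 83, Hes5 at 46 and Heyl at 21. The 3 non-canonical ligands had peaks of 68 (Dlk2), 44 (Dner) and 29 (Dlk1). Median pileups by role were 93 for cleavage genes, 87 for targets, 64 for sugar modifiers, 62.5 for ubiquitin ligases and endocytic regulators, 56.5 for nuclear partners and 44 for non-canonical ligands. These heights are those of the taller gene end and need not be those of starts. Gene-end and start pileups differed in Hes7 (87 and 40), Dtx1 (44 and 12) and Psen2 (40 and 92). The 5 canonical ligands ranged from 31 to 96.

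**Figure D5:**
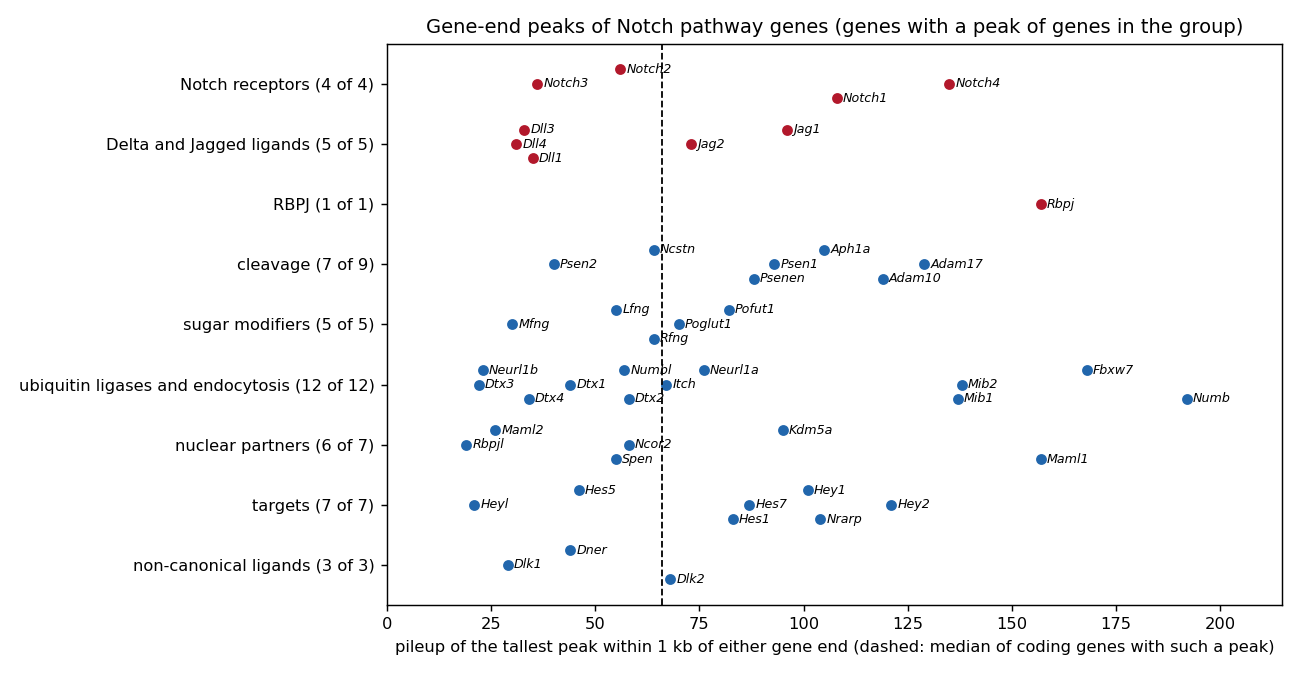
Pileup of the tallest peak within 1 kb of either gene end for the 10 genes (red) and 43 further Notch pathway genes (blue), by role, with the number of genes that have such a peak and a dashed line at the coding-gene median of 66 (points are offset vertically for legibility). The 3 Delta-like ligands sit at 31 to 35, left of most cleavage and target genes. Notch4 is drawn at 135, its 3′ peak, and Hes7 at 87, which is not its start peak (40).

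Marker genes were set beside the cell type label. All 6 markers of naive embryonic stem cells had a gene-end peak, with pileups of 58 to 152. Over all coding genes 66.5% had such a peak, at a median pileup of 66. Markers of other cells had one in 2 of 4 cases for fibroblast feeders (22 and 38) and 2 of 4 for endothelium (25 and 53, with none at Cdh5 or Pecam1). For neural progenitors it was 4 of 4 (15 to 82) and for presomitic mesoderm 3 of 3 (8 to 60). Presence of a peak thus did not separate these last cells from naive ones and cannot check the label. Where a peak was present, the median pileup was 116.5 for naive markers. It was 42 for neural progenitors, 39 for endothelium, 30 for feeders and 20 for presomitic mesoderm. The library as a whole had a median pileup of 23 with quartiles of 14 and 45, and no listed pileup was under 6, so lower sites were not detectable. No source used here gives the total read count.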

How the data were processed

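The members and gene lists were chosen with earlier results of these data known. The labels place 1 sample in each of 6 groups, and groups follow the titles, since the label for treatment says 6 h in the samples titled 1 h and 24 h. Peaks were called on 1 sample without a control and at a q of 0.05, per the name of the deposited file. Per the submitters' processing notes the tools were MACS2 2.2.6, SAMtools 1.9, Bowtie2 2.3.4.1, deepTools 3.2.1 and bcl2fastq 2.20.0.422, with builds GRCm38.p6 and mm10. No source used here gives read filters or any shift for Tn5, and duplicates or reads from repeats, if kept, would raise pileups.

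The deposited list holds the authors' fold enrichment, a ratio of summit to local background, their -log10 p and -log10 q (at least 1.3), and a score that is -log10 q times 10, rounded down. Fold is used to describe peaks within this list. Summit pileup and background were solved from fold = (pileup + 1)/(background + 1) and the Poisson p. Whole pileups (tolerance 0.01) resulted for 77626 of 77629 peaks, and it is unknown if 1 unit stands for a fragment or a read. Positions are counted from 1.

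Gene spans were those of RefSeq on GRCm38.p6. Strand and starts came from RefSeq promoter windows, which cover 17492 of 21887 coding genes, together with the 5′ end of each span. Exons were not used here. All 10 genes were named, with their tallest peaks and neighbours, and of the pathway list the 2 tallest per role and those without a peak; further ones were named after their values were seen. Of 5000 simulated pileups 100% were recovered. Alternatives varied the q and pileup thresholds, windows, overlap rule, radius, ranking measure, and the highest folds and widest peaks. Scripts ran in Python 3.11.15 with scipy 1.17.1, pandas 2.3.3, matplotlib 3.10.9 and numpy 2.4.6.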

Additional observations from a re-analysis of the deposited data

How the results depend on the processing

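The 10 genes each kept a gene-end peak under all 6 alternatives run for that count, and the further pathway genes with one numbered 39 to 43, against 40. Of 37 alternative values of the main results 33 stayed close, which means within 1.5 times for a number of genes or of peaks in the spans and within counting error for a median. The other 4 concern distances: the median number of distal peaks was 6 with gene-end windows of 500 bp, 3 with a radius of 20 kb and 8.5 with one of 100 kb, against 4.5, and widening by 100 kb gave 164 peaks, against 103. Over all coding genes these medians were 5, 2 and 8, against 4. A larger radius takes in more sequence by construction. Of 226 values for single genes or roles, 42 moved, mostly with the radius. At the ends of Notch4 the pileup was 84, against 135, when summits had to lie inside the windows or these were cut to 500 bp. For Dll1 it was 24 with windows of 500 bp, against 35, and for Dll3 and Dll4 60 and 62 with windows of 2500 bp, against 33 and 31. No paired analysis was possible because 1 library was analysed. Depth limits the low sites: 17 of the 103 peaks had a pileup under 20.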

Other observations

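Peaks near the 50 kb limit were unevenly tall. The farthest peak inside the limit had a pileup of 133 at Rbpj (49.5 kb from the gene), 109 at Jag2 (46.6 kb), 25 at Dll3 (50.0 kb) and 6 at Notch1 (49.6 kb). The nearest peaks beyond it had pileups of 30 at Rbpj (53.8 kb), 11 at Jag2 (55.4 kb), 29 at Dll3 (52.5 kb) and 12 at Notch1 (56.7 kb). The flanks of Jag1 and of Notch2 held 1 peak each, at 7.25 kb from Jag1 and 23.1 kb from Notch2, and the nearest peak beyond the limit lay 115 kb from Jag1 and 70.8 kb from Notch2.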
